A study of Mus musculus with 8 samples.

Results

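Circadian clock genes were followed in whole kidneys of mice that had lost Xpr1, a phosphate exporter and retrovirus receptor, from the renal tubule. The set holds 10 genes of the 46517 listed in the count files, taken by symbol: the activators Arntl and Clock, the repressors Per1, Per2, Per3, Nr1d1 and Bhlhe40, and Dbp, Tef and Hlf, the transcription factors of the PAR bZIP family. All 10 were found by a single Ensembl identifier and all 10 passed the filter on low counts, as did 15382 genes in all. There were 4 conditional knockout (cKO) kidneys, from mice KO16, KO18, KO19 and KO20, and 4 Control kidneys, from C10, C11, C13 and C14. The cKO mice were Xpr1lox/lox-Pax8-rtTA/LC-1, in which a doxycycline-dependent activator made in tubule cells from the Pax8 promoter switches on Cre from the LC-1 transgene. Controls were Xpr1lox/lox littermates without the transgenes, and both groups drank doxycycline at 2 mg/ml for 2 weeks from the age of 8 weeks. Loss of Xpr1 and presence of rtTA and Cre therefore cannot be told apart. The labels give no time of day at which kidneys were taken, nor sex, litter or batch.

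In the mammalian clock, ARNTL (BMAL1) and CLOCK bind E-boxes and switch on the Per and Cry genes, whose proteins return to block them. NR1D1 (REV-ERB alpha), itself driven from E-boxes, competes with the ROR receptors at response elements in Arntl and Nfil3, so that in mouse kidney the Arntl and Nfil3 transcripts are high when those of Nr1d1 and Dbp are low. DBP, TEF and HLF bind D-boxes, where NFIL3 opposes them, and carry the rhythm to genes of transport and metabolism, while BHLHE40 (DEC1) represses through E-boxes.

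Stretches of promoter that hold these motifs are shown for 5 genes of the set and for Nfil3, Cry1 and Ciart. These are loop genes whose levels differed widely between libraries, as those of Cry2, which is not printed, also did. The windows run from 250 bases before to 50 after each annotated start, from RefSeq on GRCm38.p6, and 8 of the 10 genes matched 13 of them; Per2 and Bhlhe40 did not. The letters searched, on both strands, were CACGTG for the E-box, CACGTT for its variant, TTATGTAA or TTACGTAA for the D-box, and TAGGTCA or TGGGTCA for the element of the ROR and REV-ERB receptors. Of the 8 genes, 5 held a match, and Clock, Dbp and Hlf held none. Among 14 other loop genes 13 had a window and 7 a match. Those of Cry2, Rorb, Bhlhe41 and Timeless, and a further E-box of Ciart upstream of those shown, are not printed. Over all 32851 windows an E-box stood in 7.15%, the variant in 4.68%, a D-box in 1.06% and a receptor element in 6.45%. Capitals mark the match, read along the gene's own strand, so that AACGTG and TGACCTA are matches on the opposite strand. A match is a string of letters, not a measured binding site.
Arntl, chr7:113207531-113207557, plus strand, receptor element after the start: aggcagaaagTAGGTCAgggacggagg
Nfil3, chr13:52981040-52981073, minus strand, receptor element: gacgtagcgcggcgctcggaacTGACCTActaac
Per1, chr11:69098761-69098810, plus strand, E-box: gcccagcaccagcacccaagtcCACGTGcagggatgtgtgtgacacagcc
Per3, chr4:151044794-151044892, minus strand, 2 D-boxes: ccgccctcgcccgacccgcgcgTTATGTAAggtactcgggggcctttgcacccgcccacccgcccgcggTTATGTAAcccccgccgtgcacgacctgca
Nr1d1, chr11:98775378-98775427, minus strand, E-box variant: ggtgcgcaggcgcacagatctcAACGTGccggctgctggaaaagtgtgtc
Tef, chr15:81802524-81802573, plus strand, E-box at the upstream start: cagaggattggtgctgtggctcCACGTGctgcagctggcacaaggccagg
Tef, chr15:81811254-81811303, plus strand, E-box at the downstream start: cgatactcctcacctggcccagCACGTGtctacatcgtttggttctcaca
Cry1, chr10:85185087-85185155, minus strand, variant and E-box: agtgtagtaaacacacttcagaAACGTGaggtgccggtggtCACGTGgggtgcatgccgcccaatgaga
Ciart, chr3:95882245-95882308, minus strand, 2 E-boxes: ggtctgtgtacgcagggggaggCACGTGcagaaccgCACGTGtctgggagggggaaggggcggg

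The libraries held 20366113 to 25536786 reads assigned to genes in cKO kidneys and 24664070 to 26155030 in Control kidneys. Xpr1 (ENSMUSG00000026469) had 5.74, 26.5, 22 and 12 CPM (reads scaled to the size of the library) in KO16, KO18, KO19 and KO20, against 80.2, 126, 108 and 103 CPM in C10, C11, C13 and C14, so every library followed its label, although most of the counted exonic sequence lies outside the floxed exon. Some libraries leaned to longer genes than others. The slope of log2 CPM on the doubling of exonic length was 0.0417, 0.744, 0.684 and 0.315 in KO16, KO18, KO19 and KO20, against 0.426, 0.792, 0.548 and 0.531 in C10, C11, C13 and C14; KO16 and KO20 stood apart at the low end of their group and C11 at the high end of its own. Of 6 proximal tubule markers 5 fell in cKO kidneys, and their summed level ran from 1630 to 3820 CPM there and from 7230 to 16800 CPM in Control kidneys, with C11 the highest. Of 5 leukocyte markers 3 rose, with sums of 44.5 to 66 CPM in cKO and 20.7 to 27 CPM in Control kidneys. The 3 thick ascending limb markers were not called, with sums of 3250 to 4940 CPM in cKO and 3220 to 3940 CPM in Control kidneys. Among the other types, 1 of 4 fibroblast and mural markers (Col3a1) rose, and of 3 collecting duct markers Aqp2 rose and Aqp3 fell. No endothelial, podocyte, distal convoluted tubule or intercalated cell marker was called (of 4, 3, 3 and 3), and no marker of the 9 kidney cell types examined had 0 reads in any library. In whole kidney, fewer cells of a type and less RNA per cell cannot be told apart.

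No gene of the set rose in cKO kidneys and 2 of the 10 fell: Hlf, to 0.29 of its Control level, and Bhlhe40, to 0.38 of it. The other 8 were not called; at an unadjusted p under 0.05 there were 3, all lower (Tef besides these), where 27% of all tested genes passed. DESeq2 also called 0 higher and 2 lower, where it called 11.1% of all tested genes higher and 9.5% lower. The calls throughout rest, unless another test is named, on edgeR's quasi-likelihood test with Benjamini-Hochberg adjustment over all 15382 genes and a threshold of 0.05. By the same rule 14.1% of all tested genes were called, 7.5% higher and 6.61% lower, so that 2 of 10 lies near the share among all genes. The 2 genes were also the members whose groups did not overlap in CPM, a property that 22.8% of all tested genes had. The median log2 fold change of the set was -0.72, against 0.01 over all tested genes, with 8 values below 0 and 2 above. This shift rests in part on Control mouse C11. Without C11 the values were 1.09 for Per1, 0.51 for Per2, 0.03 for Dbp, -0.09 for Per3, and -0.19 for both Arntl and Nr1d1. Clock was then at -0.51, Tef at -0.77, Bhlhe40 at -1.3 and Hlf at -1.41. With library totals as the only scaling the median of all genes moved to 0.34, the calls over all genes split into 2374 higher and 548 lower in place of 1154 and 1016, and none of the 10 was called.

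**Figure D1:**
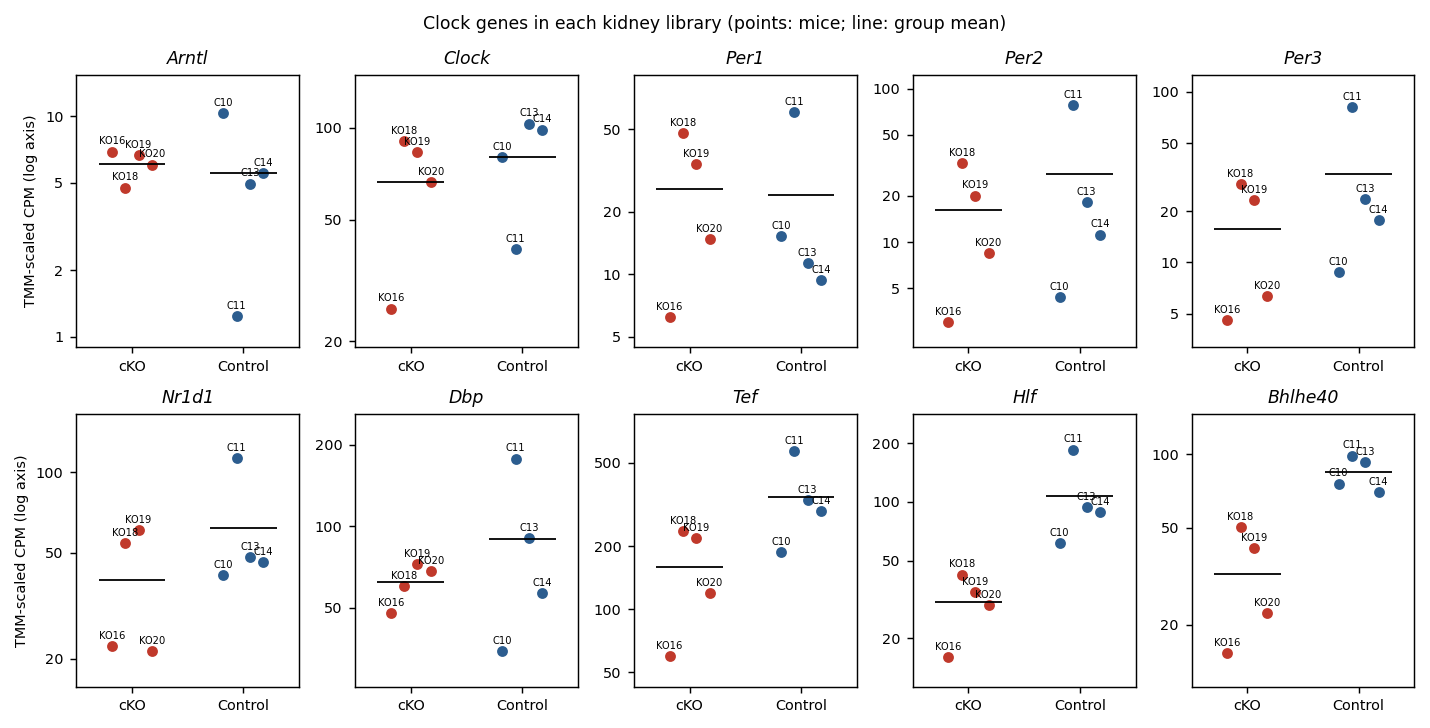
TMM-scaled CPM on a log axis of the 10 clock genes in each library, with cKO mice left in red and Control mice right in blue; points are mice and lines are group means. Hlf and Bhlhe40 do not overlap between groups. Among Control mice C11 is lowest for Arntl and Clock and highest for the other 8.

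Arntl and Clock, the activating partners, were not called. Arntl (chr7:113207465-113314126, GRCm38, plus strand) had 6.91, 4.74, 6.64 and 6.03 CPM in KO16, KO18, KO19 and KO20, against 10.3, 1.24, 4.95 and 5.54 CPM in C10, C11, C13 and C14. The cKO values lay within the Control range, which was set by C10 at its top and C11, with 31 reads, at its foot. The log2 fold change was 0.14 (SE 0.5, adjusted p = 0.889), and -0.19 without C11. Clock (chr5:76209868-76304792, minus strand) had 25.6, 90.3, 82.9 and 66.5 CPM in the cKO mice, against 80.2, 40, 103 and 98.4 CPM in the Control mice. KO16 was low among the cKO and C11 among the Control libraries, and the groups overlapped, and the log2 fold change was -0.28 (SE 0.42, adjusted p = 0.727). Arntl2, a paralog of Arntl, had 3.1 ± 1.45 CPM in cKO and 1.36 ± 0.359 CPM in Control kidneys (SD, n = 4 each; log2 fold change 1.19, adjusted p = 0.0849). Arntl2 was called higher by DESeq2 (adjusted p = 0.0237), with library totals alone (0.0476) and with the length slope as a covariate (0.00249). It was also called without KO16 (0.0166), without KO16 and KO20 (0.0104) and without these and C11 (0.000434). In these settings 8.17% to 29.5% of all tested genes were called higher. Under every other alternative Arntl2 was not called, with adjusted p from 0.0502 (upper-quartile factors) to 0.198 (without C10). Npas2, a paralog of Clock, had 2.19 ± 1.19 CPM in cKO and 1.67 ± 0.702 CPM in Control kidneys (log2 fold change 0.4, adjusted p = 0.631).

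The 3 Per genes, the repressors at the centre of the loop, varied widely between mice of the same group. Per1 (chr11:69095217-69109960, plus strand) had 6.22, 47.7, 33.8 and 14.8 CPM in KO16, KO18, KO19 and KO20, against 15.3, 60.6, 11.3 and 9.4 CPM in C10, C11, C13 and C14. Per2 (chr1:91415982-91459324, minus strand) had 3.03, 32.7, 20.1 and 8.44 CPM in the cKO mice, against 4.39, 77.7, 18.2 and 11.2 CPM in the Control mice. Per3 (chr4:151003652-151044665, minus strand) had 4.57, 28.8, 23.1 and 6.33 CPM in the cKO mice, against 8.73, 81.1, 23.6 and 17.6 CPM in the Control mice. In all 3 genes KO18 and KO19 were high and KO16 low among cKO mice, C11 was the highest library of all, and the groups overlapped. The log2 fold changes were 0.09 (SE 0.73, adjusted p = 0.958) for Per1, -0.79 (SE 0.9, adjusted p = 0.633) for Per2 and -1.06 (SE 0.77, adjusted p = 0.429) for Per3. Without C11 the values were 1.09 for Per1, 0.51 for Per2 and -0.09 for Per3, none of them called. Cry1, the partner of the PER proteins, had 3.56 ± 0.535 CPM in cKO and 2.63 ± 2.19 CPM in Control kidneys, of which C11 held 5.9 CPM and the other 3 Control mice 1.21 to 1.73 CPM. Its log2 fold change was 0.43 (adjusted p = 0.62), and 1.2 without C11 (adjusted p = 0.0225), where cKO was called higher. Cry2 had 12.2 ± 7.26 CPM in cKO and 15.5 ± 15 CPM in Control kidneys (log2 fold change -0.35, adjusted p = 0.792), again with C11 on top at 37.7 CPM.

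Nr1d1, the REV-ERB alpha receptor that represses Arntl, was not called. It lies at chr11:98767932-98775333 on the minus strand and had 22.3, 54.2, 60.6 and 21.3 CPM in KO16, KO18, KO19 and KO20, against 41.1, 113, 48.2 and 45.9 CPM in C10, C11, C13 and C14. KO16 and KO20 fell below every Control library while KO18 and KO19 lay among them, and C11 stood above the rest of its group; the log2 fold change was -0.65 (SE 0.46, adjusted p = 0.412). Its exons share 263 bp, 8.5% of their length, with Thra on the other strand. Nr1d2, its paralog, had 58.6, 220, 209 and 216 CPM in the cKO mice, against 185, 182, 232 and 207 CPM in the Control mice, so that KO16 alone was low. Rora, a ROR receptor, which activates through the same elements, had 46.8 ± 22.3 CPM in cKO and 68.4 ± 9.52 CPM in Control kidneys (log2 fold change -0.55, adjusted p = 0.411).

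The 3 PAR bZIP genes all had log2 fold changes below 0, and Hlf was called. Hlf (chr11:90336536-90390895, minus strand) had 16, 42.5, 34.5 and 29.7 CPM in KO16, KO18, KO19 and KO20, against 61.3, 185, 93.9 and 88.8 CPM in C10, C11, C13 and C14. Every cKO library was below every Control library, the nearest being KO18 and C10. Hlf averaged 30.7 ± 11.1 CPM in cKO and 107 ± 53.6 CPM in Control kidneys (SD, n = 4 each), which is -1.8 as a log2 fold change with an SE of 0.4 (adjusted p = 0.0175). Without C11, the highest library, Hlf stayed called at -1.41 (adjusted p = 0.0304), where 5.65% of all genes were called lower. Without KO20, where 3.63% were called lower, it missed the threshold at -1.75 (adjusted p = 0.0544), as it did with library totals alone at -1.45 (adjusted p = 0.0608).

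Tef (chr15:81802421-81826863, plus strand) had 59.6, 236, 219 and 119 CPM in KO16, KO18, KO19 and KO20, against 187, 566, 330 and 293 CPM in C10, C11, C13 and C14. The groups overlapped through C10, which lay below KO18 and KO19. The log2 fold change was -1.12 (SE 0.47, adjusted p = 0.163), and with the length slope of each library as a covariate it was -0.82 and called (adjusted p = 0.00321). Dbp (chr7:45705088-45710203, plus strand) had 47.9, 60, 72.7 and 68.1 CPM in the cKO mice, against 34.6, 178, 90.4 and 56.8 CPM in the Control mice. The 4 cKO libraries lay close together inside the Control range, whose top was C11 and foot C10. The log2 fold change of Dbp was -0.53 (SE 0.45, adjusted p = 0.497), and 0.03 without C11; 539 bp of its exons, 18% of their length, overlap Sphk2 on the other strand, and the strand setting of the counting is not given in the sources used here. Nfil3, which opposes the PAR bZIP factors at D-boxes, had 6.11, 3.49, 2.94 and 4.09 CPM in the cKO mice, against 8.59, 0.562, 7.08 and 5.9 CPM in the Control mice (log2 fold change -0.41, adjusted p = 0.729). C11 held 14 reads of Nfil3, and the other 3 Control libraries lay above every cKO library but KO16, which was above C14.

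Reads of Hlf were also set against those of other clock genes, a ratio that the scaling of a library does not touch, though its lean to longer genes can. Hlf was singled out here because its own levels did not overlap, so these ratios describe the values further and are no separate support. There were 0.335, 0.709, 0.475 and 0.436 reads of Hlf per read of Dbp in KO16, KO18, KO19 and KO20, against 1.77, 1.04, 1.04 and 1.56 in C10, C11, C13 and C14. Per read of Tef there were 0.269, 0.18, 0.157 and 0.25 reads of Hlf in the cKO mice, against 0.329, 0.326, 0.284 and 0.303 in the Control mice. Neither of these ratios overlapped between the groups. Per read of Arntl there were 2.32, 8.98, 5.2 and 4.92 reads of Hlf in the cKO mice, against 5.97, 148, 18.9 and 16 in the Control mice, and these overlapped through KO18 and C10. The summed proximal tubule markers did not overlap either, and their part in the Hlf values was not tested.

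Bhlhe40, the E-box repressor DEC1, fell in cKO kidneys. It lies at chr6:108660629-108666925 on the plus strand and had 15.3, 50.1, 41.3 and 22.4 CPM in KO16, KO18, KO19 and KO20, against 75.7, 98.6, 92.4 and 69.9 CPM in C10, C11, C13 and C14. All cKO libraries were below all Control libraries, which lay close together, and C11 did not stand out. Bhlhe40 averaged 32.3 ± 16.2 CPM in cKO and 84.2 ± 13.5 CPM in Control kidneys (SD, n = 4 each), which is -1.38 as a log2 fold change with an SE of 0.37 (adjusted p = 0.0348). The call was lost when C10, C11, C13, C14 or KO20 was left out (adjusted p from 0.0662 to 0.0961, log2 fold changes from -1.47 to -1.21) and with library totals alone (-0.99, adjusted p = 0.148). Bhlhe41, its paralog DEC2, had 6.44 ± 1.89 CPM in cKO and 5.61 ± 3.07 CPM in Control kidneys (log2 fold change 0.2, adjusted p = 0.8). There were 4.1, 6.24, 5.71 and 3.32 reads of Bhlhe40 per read of Bhlhe41 in the cKO mice, against 18, 9.76, 18.8 and 21.6 in the Control mice. These did not overlap, but neither did Bhlhe40 by itself, so the ratio describes its values further and is no separate support.

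**Figure D2:**
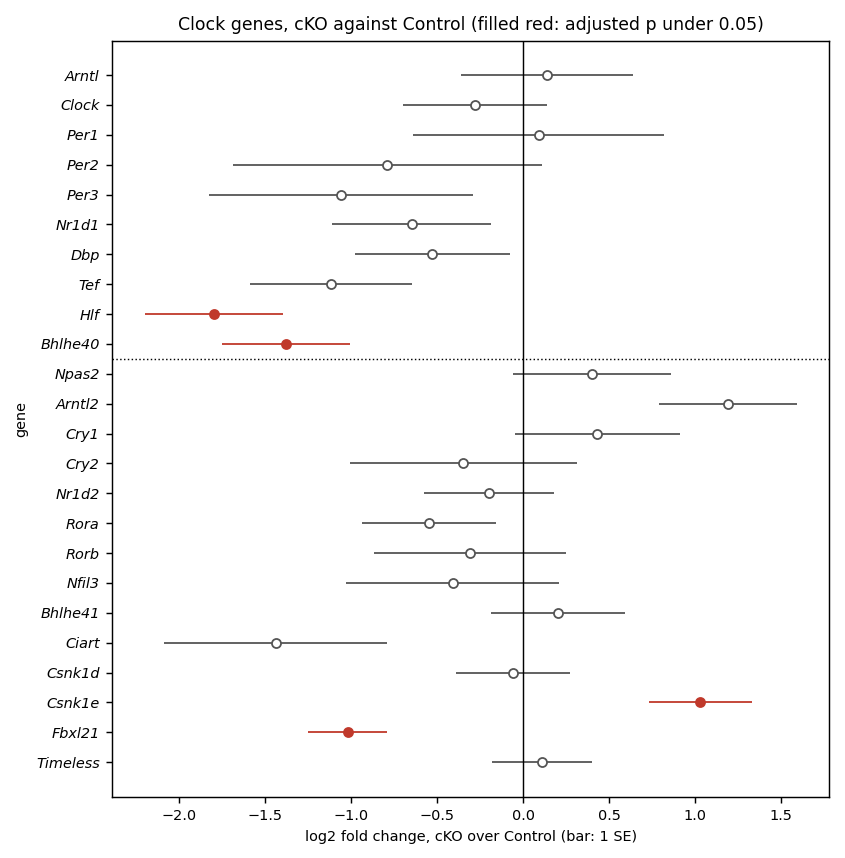
Log2 fold change of cKO over Control with 1 SE for the 10 genes (above the dotted line) and 14 other genes of the clock loop (below it); filled red points passed an adjusted p of 0.05. Among the 10, Hlf at -1.8 and Bhlhe40 at -1.38 passed, and below the line Csnk1e at 1.03 and Fbxl21 at -1.02.

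Of 14 other genes of the clock loop, 1 rose, 1 fell and 12 were not called, with a median log2 fold change of -0.13. Over all tested genes 7.5% were called higher and 6.61% lower, so that 1 of 14 each way lies near the share among all genes. Groups did not overlap in CPM for 22.8% of all tested genes. Csnk1e, the casein kinase that marks PER proteins for degradation, had 24.6 ± 6.82 CPM in cKO and 12.1 ± 3.8 CPM in Control kidneys (log2 fold change 1.03, SE 0.3, adjusted p = 0.0491). KO16 at 15.3 CPM lay below C11 at 17.7 CPM, and the call was lost without any of C10, C13, C14, KO18, KO19 and KO20 (adjusted p up to 0.159) and without a filter on low counts (adjusted p = 0.0776). Fbxl21, an F-box protein that acts on the cryptochromes, had 2.98, 2.66, 3.24 and 2.95 CPM in KO16, KO18, KO19 and KO20, against 7.52, 4.65, 5.43 and 6.43 CPM in C10, C11, C13 and C14, with no overlap (log2 fold change -1.02, SE 0.23, adjusted p = 0.0169). Its call was lost without C10, C14 or KO20 (adjusted p up to 0.0633) and with library totals alone (adjusted p = 0.0758). Ciart, a repressor of ARNTL and CLOCK, had 4.72 ± 2.49 CPM in cKO and 12.9 ± 11 CPM in Control kidneys, where C11 held 28.3 CPM (log2 fold change -1.44, adjusted p = 0.189). Csnk1d (-0.06), Timeless (0.11) and Rorb (-0.31) were not called, with adjusted p-values of 0.781 or more.

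Of 7 genes known as clock outputs none was called by edgeR, with 1 (Por) at an unadjusted p under 0.05 and called by DESeq2, and a median log2 fold change of -0.58. Of all tested genes 27% had an unadjusted p under 0.05, and DESeq2 called 11.1% higher and 9.5% lower. Por, the electron donor of cytochrome P450 enzymes, had 130, 96.3, 86.9 and 61.8 CPM in KO16, KO18, KO19 and KO20, against 132, 438, 194 and 158 CPM in C10, C11, C13 and C14. The groups did not overlap, C11 was again the highest, and the log2 fold change was -1.3 (SE 0.41, adjusted p = 0.0669). Usp2, a deubiquitinase, had 64.9 ± 25.4 CPM in cKO and 102 ± 53.5 CPM in Control kidneys (log2 fold change -0.65, adjusted p = 0.339). Wee1, a kinase of the cell cycle, had 5.99 ± 3.04 and 9.15 ± 2.93 CPM (log2 fold change -0.61, adjusted p = 0.403), and Alas1, the first enzyme of heme synthesis, 97.8 ± 20 and 146 ± 48.7 CPM (log2 fold change -0.58, adjusted p = 0.233). Nampt, which makes a precursor of NAD, was close in the groups at 239 ± 64.2 and 242 ± 8.36 CPM (log2 fold change -0.02, SE 0.23).

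How far the libraries of a group agreed on the clock genes was examined because the time of sampling is unknown. C11 was below the other Control mice for some clock genes and above them for others. By the log2 difference from the mean of the other 3 Control libraries, C11 was at -2.33 for Arntl, -3.48 for Nfil3 and -1.22 for Clock, and at 3 for Per2, 2.39 for Per3, 2.36 for Per1, 1.66 for Dbp, 1.33 for Nr1d1, 2.28 for Cry2 and 2.02 for Ciart. The 1000 tested genes nearest in exonic length to each of these had medians between -0.31 and 0.5 in C11. Other clock genes departed less in C11, with 1.21 for Hlf, 1.11 for Tef, 0.32 for Bhlhe40, -0.19 for Nr1d2 and -0.18 for Rora, where genes of like length had medians of 0.08 to 0.49. C10 departed the other way in most of them, with 1.63 for Arntl and 1.52 for Nfil3 but -2.49 for Per2, -1.88 for Per3, -1.48 for Dbp, -1.67 for Cry2 and -1.57 for Ciart. The mean of the other 3 includes C11, which by itself pushes C10 away from C11 and makes these differences larger. Against C13 and C14 alone C10 kept its side for these genes, by less. Arntl had 10.3 CPM in C10, against 4.95 and 5.54 CPM in C13 and C14, and Nfil3 8.59 CPM, against 7.08 and 5.9 CPM. For Per1, C10 differed from the mean of the other 3 by -0.28 because C11 was in that mean. Its 15.3 CPM lay above C13 at 11.3 CPM and C14 at 9.4 CPM, on the side of C11. C13 and C14 lay between the extremes for Arntl, Per2, Per3, Dbp, Cry2 and Ciart.

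**Figure D3:**
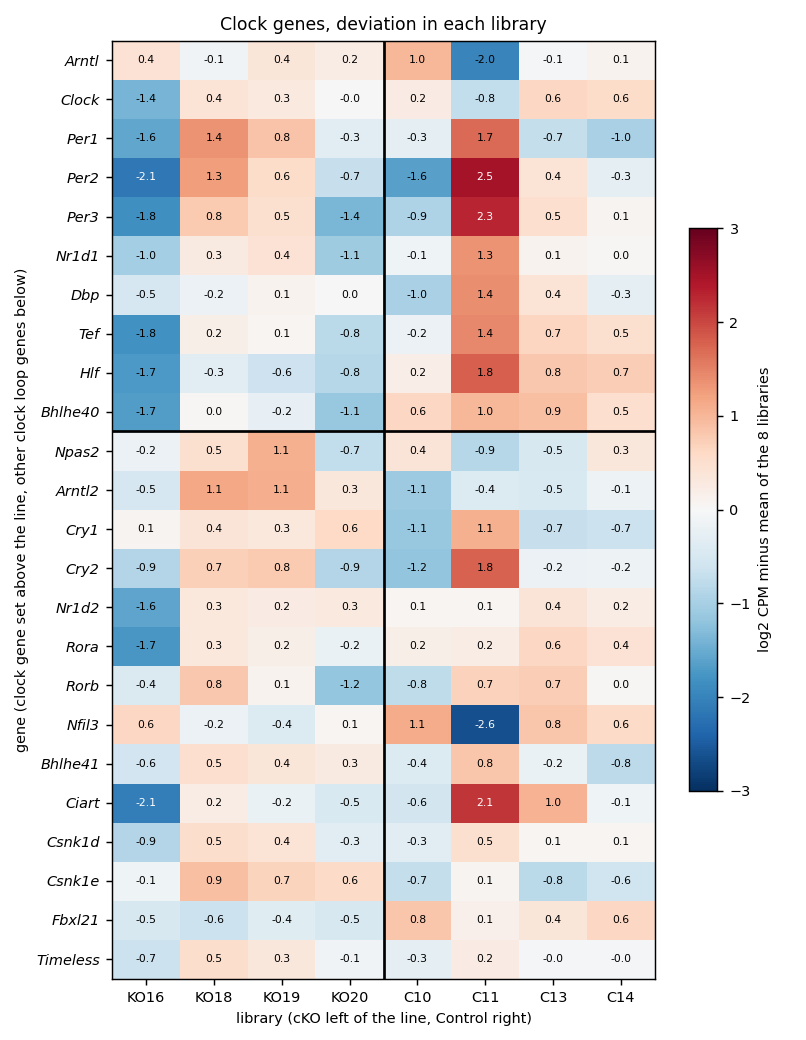
Log2 CPM of each gene minus its mean over the 8 libraries (colour and printed value), with cKO libraries left and Control libraries right of the line, and the 10 genes above 14 other clock loop genes. C11 is low for Arntl, Clock and Nfil3 and high for the Per and Cry genes, Dbp and Ciart, and KO16 is low for most genes.

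Among cKO mice Arntl and Dbp varied little, while the Per genes varied widely. The SD of log2 CPM over the 4 cKO libraries was 0.24 for Arntl and 0.27 for Dbp, below the median of 0.52 and 0.51 for the 1000 genes nearest in level. The same SD over the 4 Control libraries was 1.25 for Arntl and 1 for Dbp, above medians of 0.36 and 0.27, and without C11 it was 0.56 and 0.69, above medians of 0.17 and 0.12. For Per2 the SD was 1.49 in cKO and 1.72 in Control kidneys, for Per3 1.32 and 1.34, and for Per1 1.31 and 1.21, all above medians of 0.29 to 0.54. Bhlhe40 went the other way, with an SD of 0.79 in cKO and 0.23 in Control kidneys, where the genes nearest in level had medians of 0.52 and 0.27. None of these SDs was adjusted for the length slopes, which differed between libraries of a group. A small SD therefore does not by itself show that the libraries agreed.

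The ratio of reads within a library shows the same spread free of scaling, though not free of the lean of some libraries to longer genes. Exonic lengths were 2993 bp for Dbp, 7523 bp for Arntl, 5856 bp for Per2, 3077 bp for Nr1d1 and 2026 bp for Nfil3. There were 6.93, 12.7, 10.9 and 11.3 reads of Dbp per read of Arntl in KO16, KO18, KO19 and KO20, against 3.37, 143, 18.3 and 10.3 in C10, C11, C13 and C14. The cKO mice thus lay together inside a Control range that ran from C10 to C11. There were 0.438, 6.9, 3.02 and 1.4 reads of Per2 per read of Arntl in the cKO mice, against 0.427, 62.5, 3.67 and 2.02 in the Control mice, and 3.64, 15.5, 20.6 and 5.22 reads of Nr1d1 per read of Nfil3, against 4.79, 202, 6.81 and 7.79. In both ratios C11 was the highest library of all, and KO18 and KO19 were above KO16 and KO20.

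**Figure D4:**
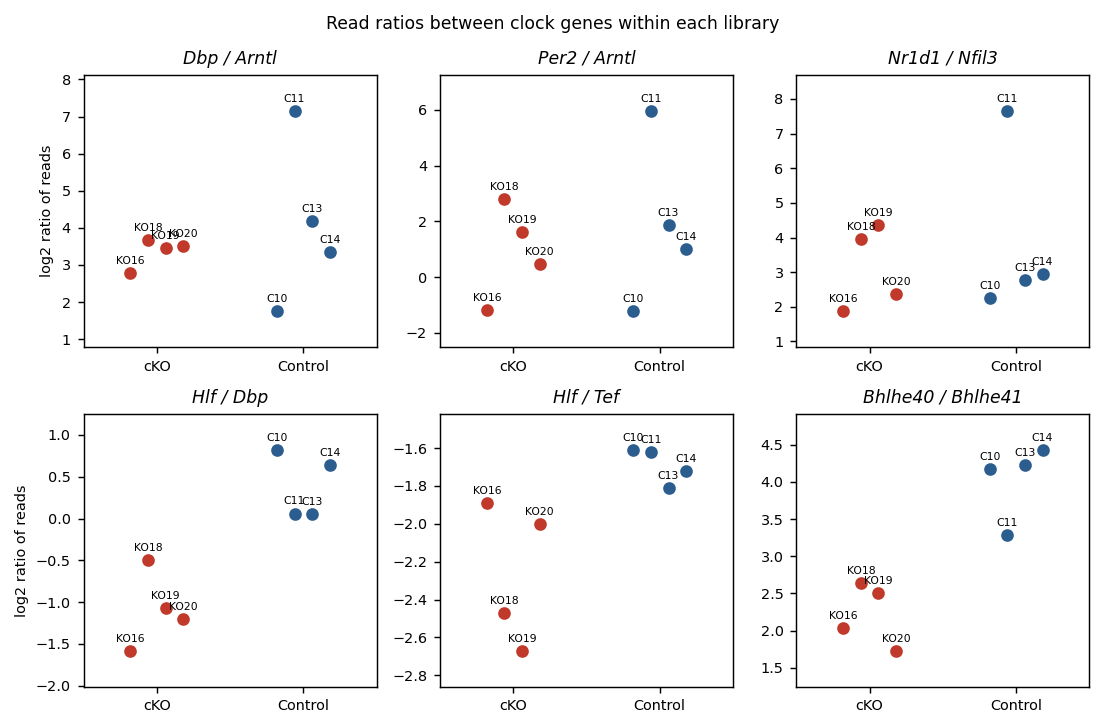
Log2 ratio of reads of paired clock genes within each library, cKO mice left in red and Control mice right in blue. C11 stands at the top for Dbp over Arntl, Per2 over Arntl and Nr1d1 over Nfil3, whereas Hlf over Dbp, Hlf over Tef and Bhlhe40 over Bhlhe41 do not overlap between the groups. Hlf and Bhlhe40 did not overlap by themselves either.

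Within each group most of the 10 genes ranked the libraries as the length slope did. The order KO18, KO19, KO20, KO16 from high to low held for 7 of the 10 and for 19.2% of all tested genes, and the order C11, C13, C14, C10 for 6 of the 10 and 16.1% of all tested genes. KO16 was the lowest cKO library for 8 of the 10 and C11 the highest Control library for 8. KO16 differed from the mean of the other cKO mice by -2.52 for Per2 and -2.2 for Per1 on the log2 scale, where genes of like length had medians of -0.57 and -0.54. The difference was 0.26 for Arntl and -0.48 for Dbp, where genes of like length had medians of -0.79 and 0.18. How much of each library's clock gene values comes with its length slope and how much with the hour of sampling was not tested.

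When KO16, KO20 and C11 were left out together, 2 cKO and 3 Control mice remained, and 29.5% of all tested genes were called higher and 28.2% lower. Hlf (log2 fold change -1.12, adjusted p = 0.000667) and Bhlhe40 (-0.83, adjusted p = 0.000904) stayed called lower there. Per1 (1.73, adjusted p = 8.09e-05), Per2 (1.18, adjusted p = 0.0318) and Nr1d1 (0.31, adjusted p = 0.0422) were called higher, of which Per2 and Nr1d1 had values below 0 with all 8 libraries; 3 of 10 lies near the share of all genes. With KO16 and KO20 alone left out, where 8.4% of all genes were called lower, Bhlhe40 was called (-0.89, adjusted p = 0.0285) and Hlf was not (-1.48, adjusted p = 0.0665).

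**Figure D5:**
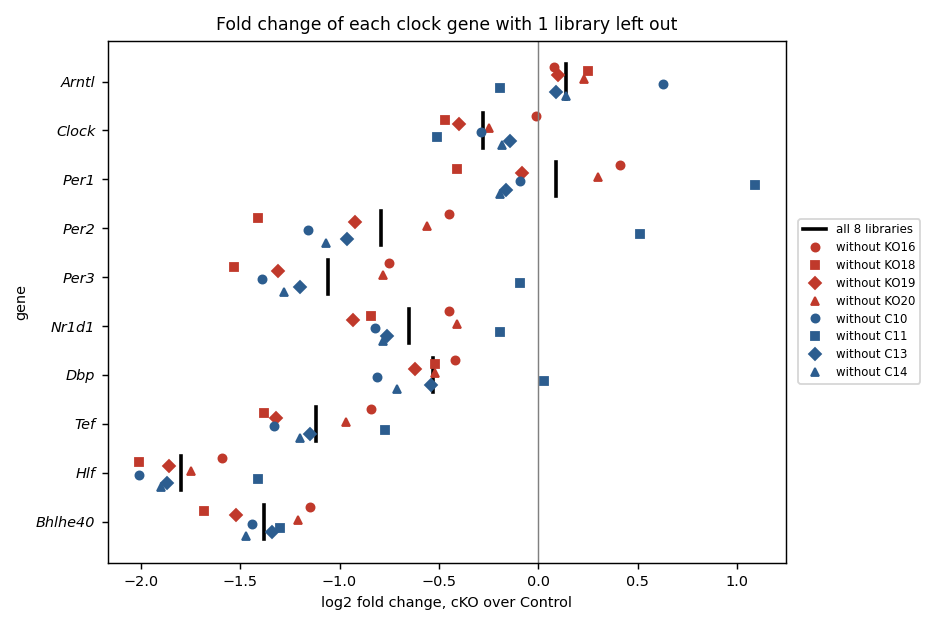
Log2 fold change of cKO over Control for each of the 10 genes with all libraries (black bars) and with 1 library left out (points, red without a cKO mouse and blue without a Control mouse). Hlf runs from -2.01 to -1.41 and Bhlhe40 from -1.68 to -1.15 when a single library is left out, whereas Arntl, Per1, Per2 and Dbp change sign.

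Per kilobase of exon, Dbp and Tef were the most abundant of the 10 and Arntl the least. In cKO kidneys the levels were 20.8 ± 3.63 CPM per kb for Dbp, 20.1 ± 10.7 for Tef, 12.9 ± 6.73 for Nr1d1, 6.86 ± 3.44 for Bhlhe40, 4.83 ± 2.11 for Clock, 4.59 ± 1.66 for Hlf, 4.55 ± 3.32 for Per1, 2.74 ± 2.25 for Per2, 1.63 ± 1.26 for Per3 and 0.808 ± 0.129 for Arntl (SD, n = 4). In Control kidneys they were 43.7 ± 20.4 for Tef, 30 ± 21 for Dbp, 20.2 ± 11.2 for Nr1d1, 17.9 ± 2.88 for Bhlhe40, 16 ± 8.02 for Hlf, 5.86 ± 2.09 for Clock, 4.76 ± 5.75 for Per2, 4.29 ± 4.34 for Per1, 3.41 ± 3.41 for Per3 and 0.731 ± 0.493 for Arntl. Neighbours in either order overlapped over mice, with the exception of Hlf and Clock in Control kidneys. Hlf stood above Clock there and next below it in cKO kidneys, where their levels overlapped.

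The genes whose deviations from their group means came nearest to those of Arntl over the 8 libraries were Sfrp4, Tmem238l, Cyp2r1, Sbspon and Ahrr, with root mean square differences of 0.24 to 0.3 in log2 CPM, where the deviations of Arntl itself had a root mean square of 0.78. Nearest to Arntl with the sign turned were Piezo2, Crybg2, Mthfd1l, Notch4 and Cry1, at 0.15 to 0.24. Nearest to Dbp were Gtse1, Col6a1, Pknox2, Adcyap1r1 and Cry1, at 0.24 to 0.27. Of 13866 genes ranked, Cry1 was thus near Dbp and near the mirror image of Arntl. All the neighbours named here differed in C11 from the mean of the other Control mice. Cry1 had 5.9 CPM in C11 against 1.54 CPM, and Sfrp4 0.281 against 1.36 CPM. Several were at low levels, and how far the matches rest on C11 alone was not tested.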

How the data were processed

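Stranded mRNA libraries were made from 500 ng of whole-kidney total RNA of each of 8 mice, per the labels' protocols. The authors deposited raw counts of reads per Ensembl gene. Trimming used cutadapt 1.3, alignment STAR 2.4.0g on GRCm38 and counting HTSeq 0.6.1, per the submitters' processing notes; annotation release and strand setting are not given there. Lines naming no gene, 39.7% to 56.2% of each file, were left out. GENCODE vM21 gave symbols, positions and exonic lengths, and placed 46005 of 46517 identifiers. The 4 cKO and 4 Control libraries were compared with edgeR 4.0.16 (TMM, filterByExpr with minimum count 10 and minimum total count 15, quasi-likelihood test, no covariate; R 4.3.3). Fold changes are log2 of cKO over Control, CPM are TMM-scaled, and log2 CPM used a prior count of 2. The fit was tested on simulated counts. The alternatives were other scalings (RLE factors, upper-quartile factors, totals alone), other tests (DESeq2 1.42.0 and voom of limma 3.58.1), other filters (none, and a mean of at least 1 CPM), libraries left out, the length slope as a covariate and, for levels per kb, the longest transcript. With 1 library from each mouse, p-values cover the spread between libraries alone. Replicates differed by a chi-square per degree of freedom of 7.6 or more, so none looked like a copy, and the common biological coefficient of variation was 0.386.

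The 10 genes, the other lists and the markers were chosen with earlier results of these data known. Named whatever their values were the 10 genes, Xpr1 and all genes of the lists of other clock loop, output, glucocorticoid-responsive and acutely induced genes, and by rule the 5 genes with a mean of at least 1 CPM nearest in pattern to Arntl, to Arntl with the sign turned, and to Dbp. A few list members are not reported here, and the list counts leave them out.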

Additional observations from a re-analysis of the deposited data

Results flagged for a closer look

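Among 84 pairs of a gene of these lists and a group, 7 held a mouse flagged by Dixon's test. The distance to its nearest neighbour was then unusually large for the range of its 4 libraries. The nominal rate of 1 in 20 is for independent, normally distributed values. The test was run on CPM, not log2 CPM, where high values stand out more than low ones, and genes of 1 library are not independent. Control mouse C11 was such a library in 5 of them, all on the high side. Nfil3 in C11, at 0.562 CPM against 5.9 to 8.59 CPM in the other Control mice, was not flagged on this scale. It held 60.6 CPM of Per1, where the other Control mice had 9.4 to 15.3 CPM. For Nr1d1 the value in C11 was 113 CPM, against 41.1 to 48.2 CPM. Cry1 stood at 5.9 CPM in C11, against 1.21 to 1.73 CPM, and Cry2 at 37.7 CPM, against 4.77 to 9.8 CPM. Sik1, an inducible kinase, was at 101 CPM in C11, against 26.7 to 35.1 CPM. Control mouse C10 held 6.56 CPM of Nr4a1, an immediate early nuclear receptor, against 2.69 to 3.05 CPM in the rest of its group. The cKO mouse KO16 held 58.6 CPM of Nr1d2, against 209 to 220 CPM in the other cKO mice.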

How the results depend on the processing

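Of 180 results of the 10 genes under 18 alternatives, 153 kept their direction and their side of the threshold, 9 lost a call, 2 gained one with the same sign and 16 changed sign. Among these 16, 2 (Per2 and Nr1d1 without KO16, KO20 and C11) also passed the threshold. Hlf was below 0 throughout, from -2.01 to -1.12 (adjusted p from 0.000116 to 0.0665), and so was Bhlhe40, from -1.68 to -0.83 (adjusted p from 0.000339 to 0.148). Leaving out a single library gave log2 fold changes from -2.01 to -1.41 for Hlf, -1.68 to -1.15 for Bhlhe40, -0.19 to 0.63 for Arntl, -0.41 to 1.09 for Per1, -1.41 to 0.51 for Per2 and -0.81 to 0.03 for Dbp. It called 0 to 2 of the 10 lower, and 531 to 1363 of all genes higher and 566 to 1334 lower. Among the other genes it changed the sign of Cry2 (-0.66 to 0.58), Nr1d2 (-0.33 to 0.09), Rorb (-0.82 to 0.01), Bhlhe41 (-0.01 to 0.64), Csnk1d (-0.27 to 0.16), Timeless (-0.07 to 0.29), Nampt (-0.1 to 0.13) and Egr1 (-0.32 to 0.72).

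With library totals alone Hlf was at -1.45 and Bhlhe40 at -0.99, neither called, so that 0 of the 10 were lower, and 2374 genes were higher and 548 lower. Signs turned there for Clock (0.13), Cry2 (0.01), Nr1d2 (0.19), Rorb (0.05), Csnk1d (0.32), Nampt (0.33), Sgk1 (0.14) and Dusp1 (0.09); the median of all genes was 0.34. Upper-quartile factors, with a median of 0.14, turned Csnk1d (0.07) and Nampt (0.11), limma-voom turned Nfil3 (0.08) and Egr1 (-0.18), and a mean of at least 1 CPM turned Nampt (0.0036). Without KO16 and KO20, Hlf was at -1.48 and not called, which left 1 of the 10 lower, and Clock (0.1), Cry2 (0.24), Nr1d2 (0.08), Rorb (0.21), Csnk1d (0.37), Tspan4 (-0.32) and Sgk1 (0.09) turned.

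Without KO16, KO20 and C11, 3 of the 10 were called higher, with Per1 at 1.73, Per2 at 1.18 and Nr1d1 at 0.31, and 4689 genes were higher and 4486 lower. Per3 (0.59), Dbp (0.09), Arntl (-0.31), Cry2 (1.14), Nr1d2 (0.0045), Rorb (0.37), Csnk1d (0.5), Usp2 (0.11), Tspan4 (-0.39) and Wee1 (0.04) also turned. The length slope as a covariate called Tef (-0.82), 2550 genes higher and 2561 lower, and turned Per2 (0.03), Cry2 (0.22), Csnk1d (0.12) and Nampt (0.02). Fbxl21 lost its call with library totals alone (-0.68, adjusted p = 0.0758) and Csnk1e without a filter (0.99, adjusted p = 0.0776). By longest transcript, the order of levels per kb turned for Tef (36) above Dbp (33.8) and Per1 (5.48) above Hlf (5.44) in cKO kidneys, and for Bhlhe40 (27) above Nr1d1 (22.9) and Per3 (5.47), Per1 (5.17), Per2 (4.78) in Control kidneys. The cause of these changes was not tested. No paired analysis was possible because the labels give the mice no numbers shared between groups. Some values rest on few reads, such as 3 to 23 of Rorb in every library and 14 of Nfil3 in C11. In simulated data, changes of 4-fold were mostly recovered and changes of 2-fold mostly missed with 4 mice a group, so a gene that was not called may still differ.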

Other observations

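Genes that respond to glucocorticoids, hormones whose release follows the hour of day, were not called by edgeR among the 5 examined, with 2 (Klf9 and Fkbp5) at an unadjusted p under 0.05 and called by DESeq2, and a median log2 fold change of -0.26. The shares over all tested genes were 27% at an unadjusted p under 0.05 and, by DESeq2, 11.1% higher and 9.5% lower. Klf9, a Krüppel-like factor induced by glucocorticoids, had 19.4, 107, 71 and 64.7 CPM in KO16, KO18, KO19 and KO20, against 140, 133, 171 and 150 CPM in C10, C11, C13 and C14. The groups did not overlap, KO16 was the lowest, and the log2 fold change was -1.18 (SE 0.42, adjusted p = 0.104). Fkbp5, a co-chaperone of the glucocorticoid receptor, had 34.3 ± 15 CPM in cKO and 63.5 ± 16 CPM in Control kidneys (log2 fold change -0.89, adjusted p = 0.114). Zbtb16, a zinc-finger factor, had 1.17, 13, 5.27 and 1.22 CPM in the cKO mice, against 1.54, 3.25, 1.83 and 1.15 CPM in the Control mice, so that KO18 and KO19 alone were above every Control library (log2 fold change 1.41, adjusted p = 0.265). Sgk1 (-0.26, adjusted p = 0.685) and Tsc22d3 (0.16, adjusted p = 0.825) overlapped between the groups. Klf9 in C11 was the lowest of the Control values, which lay close together.

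Of 6 acutely induced genes, which respond to handling as well as to the clock, none was called by edgeR, with 2 (Sik1 and Crem) at an unadjusted p under 0.05, of which DESeq2 called Sik1, and a median log2 fold change of 0.32. Here too 27% of all tested genes had an unadjusted p under 0.05, and DESeq2 called 11.1% higher and 9.5% lower. Sik1 had 5.21, 26.1, 21.9 and 10.6 CPM in KO16, KO18, KO19 and KO20, against 26.8, 101, 35.1 and 26.7 CPM in C10, C11, C13 and C14. The groups came close but did not overlap (log2 fold change -1.57, SE 0.59, adjusted p = 0.122). Egr1 had 3.4, 59, 30.1 and 18.6 CPM in the cKO mice, against 15.9, 16.4, 26.9 and 27.9 CPM in the Control mice (log2 fold change 0.35, adjusted p = 0.786). Fos (0.28), Dusp1 (-0.3), Nr4a1 (0.76) and Crem (0.72) had adjusted p-values of 0.183 or more. Tspan4, listed as a clock output gene, had 137, 44.6, 45.6 and 94.5 CPM in KO16, KO18, KO19 and KO20, against 55.8, 52.2, 58.8 and 57.7 CPM in C10, C11, C13 and C14. KO16 and KO20 lay above and KO18 and KO19 below all Control libraries, the reverse of their order for most clock genes (log2 fold change 0.52, adjusted p = 0.405). That is also the reverse of the order of the length slopes, and Tspan4 has only 2178 bp of exon. KO16 differed from the mean of the other cKO mice by 1.25 for Tspan4, where genes of like length had a median of 0.55. The part of the length slope in this order was not tested.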
